A study of Mus musculus with 6 samples.

Results

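Brain pericyte marker genes were followed across 6 mouse brain arrays. The set holds Rgs5, Higd1b, Pdgfrb, Kcnj8, Abcc9, Vtn, Anpep and Ndufa4l2, which are known markers of brain pericytes and do not include the contractile genes of smooth muscle. A probe set is a group of short oligonucleotides on the array that together report 1 transcript, and a probe set counted as a member when the platform annotation gave it 1 of these symbols and no other. All 8 genes were found, with 15 of the 45037 probe sets tested: 4 for Rgs5, 3 for Abcc9, 2 each for Pdgfrb and Vtn, and 1 each for Higd1b, Kcnj8, Anpep and Ndufa4l2. Where 1 value stands for a gene, it is that of its brightest probe set over all arrays.

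The samples were brain RNA from C57/Bl6 mice of 2 months, in 3 groups of 2 arrays, 1 sample per array. Mice of the NestinCre control had the Nestin-Cre transgene and unaltered Pofut1. Those of the Flox control had loxP sites around both copies of Pofut1 and no Cre, and Pofut1 knockout mice had the transgene together with the floxed copies. Pofut1 encodes the protein O-fucosyltransferase that Notch receptors need for their function. Nestin-Cre is driven by sequences of the nestin gene, which act in neural progenitors, so Cre is expected in neurons, astrocytes and oligodendrocytes. The labels say neither whether Cre acted in vascular mural cells nor whether each replicate was a separate animal. The p-values therefore describe only how these samples spread, which may be technical.

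Pericytes are the mural cells of capillaries: they wrap the endothelial tube inside its basement membrane and help to keep the blood-brain barrier. Endothelial cells recruit them with the growth factor encoded by Pdgfb, which binds the receptor encoded by Pdgfrb on the pericyte, and Notch3 is the Notch receptor of pericytes and arterial smooth muscle. In RNA of a tissue, fewer cells of a type and less RNA per cell cannot be told apart.

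Rgs5 fell in knockout brain to 22.4% of the controls, and the other members showed a graded picture. Higd1b stood at 51.3% of the controls, Pdgfrb at 59.8% and Ndufa4l2 at 66.2%, with both knockout arrays below all 4 control arrays for each. Vtn and Anpep stood at 87.6% and 87.3%, and the channel genes Kcnj8 and Abcc9 at 92.7% and 95.9%. By the brightest probe set of each, the knockout arrays overlapped the controls. Kcnj8 stood at 112% of NestinCre control and at 76.7% of Flox control, so its direction depended on the control. Of the 15 member probe sets 1 passed limma's test with Benjamini-Hochberg adjustment over all probe sets, the brightest of Rgs5, which fell, against 0.0155% of all probe sets that passed in either direction and 0.00888% that passed as lower. In 9 of 15 the knockout arrays lay below all controls, as they did in 9.19% of all probe sets, and 10 of 15 were lower at an unadjusted limma p under 0.05, beside 5.08% of all that were lower and 6.04% that were higher.

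**Figure D1:**
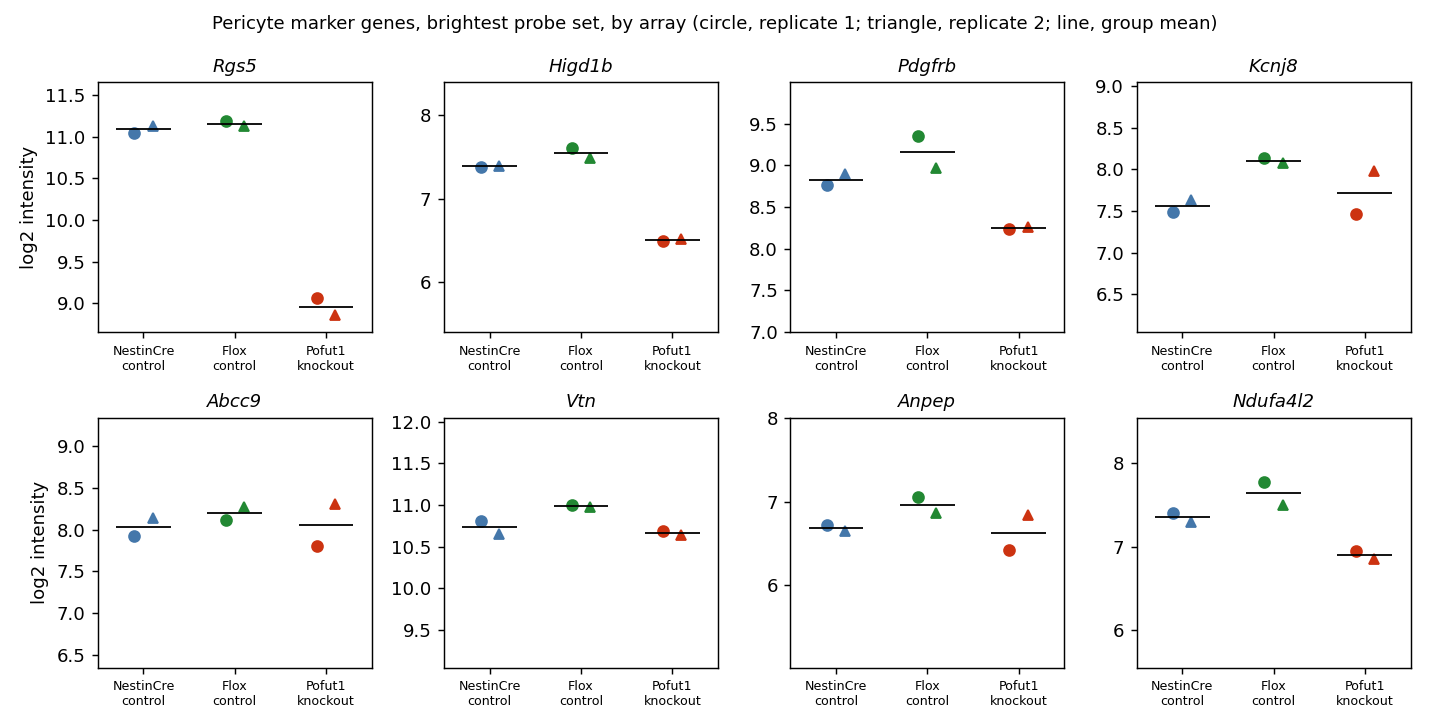
Log2 intensity of the brightest probe set of each of the 8 pericyte genes (vertical axis, each panel spanning the same range) on each array by group; circles are replicate 1, triangles replicate 2 and lines group means. Rgs5, Higd1b, Pdgfrb and Ndufa4l2 are below all controls on both knockout arrays, while the 2 knockout arrays of Kcnj8, Abcc9 and Anpep lie apart from each other.

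Promoters are shown for Rgs5, the member that fell most, and for 3 members whose brightest probe set overlapped the controls. RefSeq promoter sequences of build GRCm38.p6 were at hand for 5 of the 8 genes. None was at hand for Higd1b, Pdgfrb or Ndufa4l2, which also lay below all controls, so members that fell and others cannot be contrasted. The 250 bases before the transcript start of Rgs5, of the neighbouring channel genes Kcnj8 and Abcc9, and of Vtn are printed here, 5′ to 3′ on the strand of the gene, with the letters TGGGAA in capitals.
Rgs5 (chr1:169655251-169655500, plus strand): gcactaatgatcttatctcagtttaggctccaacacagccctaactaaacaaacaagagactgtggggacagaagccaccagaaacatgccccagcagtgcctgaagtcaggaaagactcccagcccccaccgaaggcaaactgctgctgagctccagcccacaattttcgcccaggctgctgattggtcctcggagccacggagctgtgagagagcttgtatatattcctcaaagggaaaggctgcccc
Kcnj8 (chr6:142571615-142571864, minus strand): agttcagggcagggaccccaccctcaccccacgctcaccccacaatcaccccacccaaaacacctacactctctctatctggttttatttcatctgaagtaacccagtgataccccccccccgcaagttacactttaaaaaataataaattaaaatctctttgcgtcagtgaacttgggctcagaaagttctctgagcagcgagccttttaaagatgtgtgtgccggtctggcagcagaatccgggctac
Abcc9 (chr6:142702275-142702524, minus strand): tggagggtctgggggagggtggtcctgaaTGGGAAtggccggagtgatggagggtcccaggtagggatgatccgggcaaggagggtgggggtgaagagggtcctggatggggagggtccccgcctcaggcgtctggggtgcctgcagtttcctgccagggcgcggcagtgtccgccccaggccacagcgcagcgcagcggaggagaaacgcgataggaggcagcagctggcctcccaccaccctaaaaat
Vtn (chr11:78498870-78499119, plus strand): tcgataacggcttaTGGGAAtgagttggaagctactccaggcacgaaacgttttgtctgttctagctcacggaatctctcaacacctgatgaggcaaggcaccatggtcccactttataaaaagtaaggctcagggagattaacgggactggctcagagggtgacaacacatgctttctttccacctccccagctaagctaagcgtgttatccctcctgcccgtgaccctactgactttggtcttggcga
TGGGAA is the core of the sequence bound by RBPJ, the DNA-binding partner of Notch, and was searched on both strands. It was found once in the Abcc9 window, 221 bases before the start, and once in the Vtn window, 236 bases before it, and not in those of Rgs5, Kcnj8 or Anpep. Of 32851 promoter windows of the same length, 21.6% held it. CACGTG and CACGCG, the letters to which Hes and Hey repressors bind, were found in none of the 5 windows and in 6.02% and 7.62% of all windows. These matches describe the letters of the windows only.

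Rgs5 encodes a GTPase-activating protein that shortens signalling through G protein-coupled receptors, and it is among the most used markers of brain pericytes. Its brightest probe set (1417466_at) had log2 intensities of 11.05 and 11.13 in NestinCre control, 11.19 and 11.12 in Flox control, and 9.06 and 8.86 in knockout. The 4 control arrays lay close together and the knockout arrays were far below them. On the linear scale the NestinCre control mean was 2181 ± 89.7 (SD, n = 2), the Flox control mean 2283 ± 72.9 (SD, n = 2) and the knockout mean 499.8 ± 49.4 (SD, n = 2). The log2 difference from both controls was -2.16 (SE 0.08, 95% interval -2.36 to -1.96), with a limma adjusted p of 0.0263, and it ranked 2 of 45037 probe sets by p. Against NestinCre control alone it was -2.13 (limma adjusted p = 0.0574), and against Flox control alone -2.19 (limma adjusted p = 0.0495). The limma call against both controls was lost when any 1 array was left out, with adjusted p from 0.132 to 0.357, while the difference ran from -2.26 to -2.06.

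The other Rgs5 probe sets were lower in knockout as well and did not pass. The next brightest (1420941_at) had log2 intensities of 10.49 and 10.72 in NestinCre control, 10.13 and 11.75 in Flox control, and 8.58 and 7.80 in knockout. Its difference of -2.59 was the largest decrease among all probe sets, but the gap of 1.61 between the Flox control arrays made the SE 0.50 (limma adjusted p = 0.236). The third (1420942_s_at) ran from 8.49 to 8.82 in the controls and stood at 6.46 and 6.59 in knockout, a difference of -2.12 (SE 0.12, limma adjusted p = 0.0501). The dimmest (1420940_x_at) ran from 7.05 to 7.42 in the controls and stood at 6.04 and 5.76 in knockout, a difference of -1.37 (SE 0.11, limma adjusted p = 0.0860). In all 4 the groups did not overlap. By the array maker's naming, probe sets ending in _s_at or _x_at hold probes that may also match other transcripts, so the last pair carries less certainty about its target.

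Higd1b, a small mitochondrial membrane protein of the hypoxia-induced gene domain family and a marker of brain pericytes, was the member nearest to Rgs5 in p. Its probe set had log2 intensities of 7.38 and 7.40 in NestinCre control, 7.61 and 7.49 in Flox control, and 6.49 and 6.52 in knockout. The knockout arrays differed from each other by 0.02 and lay below every control. On the linear scale the NestinCre control mean was 168 ± 1.77 (SD, n = 2), the Flox control mean 188 ± 10.7 (SD, n = 2) and the knockout mean 90.8 ± 1.05 (SD, n = 2). The difference from both controls was -0.96 (SE 0.05, 95% interval -1.10 to -0.82), with a limma adjusted p of 0.0501 just above the threshold of 0.05. That side of the threshold depends on the setting: with 1 probe set per gene the limma adjusted p was 0.0175, with arrays centred on their medians 0.0413, and over all alternatives it ran from 0.0113 to 0.730. This probe set lay at 7.15 on average, below the median of 7.34 over all probe sets.

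Pdgfrb encodes the receptor through which pericytes respond to endothelial platelet-derived growth factor. Its brighter probe set (1436970_a_at) had log2 intensities of 8.77 and 8.89 in NestinCre control, 9.35 and 8.97 in Flox control, and 8.24 and 8.26 in knockout. Both knockout arrays were below all controls, and Flox control replicate 1 stood highest. The difference from both controls was -0.74 (SE 0.12, 95% interval -1.05 to -0.44, limma adjusted p = 0.210). The dimmer probe set (1417148_at) stood at 8.07 and 7.96, 8.46 and 8.05, and 7.53 and 7.84 in the same order, a difference of -0.45 (SE 0.15, limma adjusted p = 0.396). Its groups did not overlap either, but the knockout arrays were 0.31 apart. From NestinCre control alone the brighter probe set differed by -0.58 (SE 0.14) and the dimmer by -0.33 (SE 0.17, 95% interval -0.78 to 0.12). From Flox control alone the differences were -0.91 (SE 0.14) and -0.57 (SE 0.17).

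Ndufa4l2, a mitochondrial protein related to a subunit of cytochrome c oxidase and known as a hypoxia-inducible gene, had log2 intensities of 7.40 and 7.30 in NestinCre control, 7.78 and 7.50 in Flox control, and 6.95 and 6.85 in knockout. The groups did not overlap, and Flox control replicate 1 again stood highest. The difference from both controls was -0.59 (SE 0.10, 95% interval -0.84 to -0.35, limma adjusted p = 0.211). It was -0.45 (SE 0.11) from NestinCre control alone and -0.74 (SE 0.11) from Flox control alone.

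Kcnj8 and Abcc9 encode the pore and the regulatory subunit of 1 ATP-sensitive potassium channel, which couples metabolism to the membrane potential of mural cells, and they are neighbouring genes on chromosome 6. Kcnj8 had log2 intensities of 7.49 and 7.63 in NestinCre control, 8.13 and 8.08 in Flox control, and 7.46 and 7.98 in knockout. Knockout replicate 1 was the lowest of all arrays and replicate 2 lay between the control groups. The brightest Abcc9 probe set (1435752_s_at) stood at 7.93 and 8.14, 8.11 and 8.28, and 7.80 and 8.31 in the same order, so that the knockout arrays were the lowest and the highest of the 6. By its ending it may also match other transcripts.

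For Kcnj8 the difference from both controls was -0.11 (SE 0.16, 95% interval -0.51 to 0.29, limma adjusted p = 0.880). For the brightest Abcc9 probe set it was -0.06 (SE 0.16, 95% interval -0.48 to 0.36, limma adjusted p = 0.950), and for its other probe sets 0.07 (SE 0.18) and -0.14 (SE 0.07). Both intervals include 0 and lie wholly above those of Rgs5 and Higd1b, whereas the difference between genes was not itself tested. The sign of both genes turned when knockout replicate 1 was left out, to 0.15 for Kcnj8 and 0.19 for Abcc9. Kcnj8 differed by 0.16 (SE 0.18) from NestinCre control alone and by -0.38 (SE 0.18) from Flox control alone. Both knockout arrays were below both Flox control arrays for this gene.

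Vtn encodes vitronectin, a secreted adhesive glycoprotein made by brain pericytes. Its brighter probe set (1420484_a_at) had linear intensities of 1795 and 1610 in NestinCre control, 2054 and 2011 in Flox control, and 1654 and 1601 in knockout. Knockout overlapped NestinCre control and was below Flox control. The log2 difference was -0.063 (SE 0.07) from NestinCre control, -0.32 (SE 0.07) from Flox control and -0.19 (SE 0.06, 95% interval -0.35 to -0.03) from both. None passed, with limma adjusted p of 0.177 against Flox control and 0.390 against both. The other Vtn probe set (1455098_a_at) showed the same order of groups, at log2 intensities of 10.02 and 9.96, 10.43 and 10.23, and 9.90 and 9.86, and a difference of -0.28 (SE 0.07, limma adjusted p = 0.315) from both controls. In this probe set both knockout arrays were below all controls.

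Anpep encodes aminopeptidase N, a surface peptidase of pericytes also found on some myeloid cells and fibroblasts. Its log2 intensities were 6.72 and 6.65 in NestinCre control, 7.06 and 6.87 in Flox control, and 6.42 and 6.84 in knockout, with replicate 1 of the knockout lowest and replicate 2 among the controls. The difference from both controls was -0.20 (SE 0.14, 95% interval -0.55 to 0.16, limma adjusted p = 0.692).

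The 2 knockout arrays thus differed from each other more for some member probe sets than for others. Replicate 2 exceeded replicate 1 by 0.52 for Kcnj8, by 0.51 and 0.61 for the 2 brighter Abcc9 probe sets, by 0.42 for Anpep and by 0.31 for the dimmer Pdgfrb probe set. For Higd1b and the brighter Pdgfrb probe set the gap was 0.02, for Vtn -0.05 and -0.04, and for the brightest Rgs5 probe set -0.20. The other Rgs5 probe sets had gaps of -0.78 (1420941_at), 0.13 (1420942_s_at) and -0.27 (1420940_x_at). That of 1420941_at was the widest among the member probe sets, so the gaps also varied between probe sets of a gene. The X-inactivation transcript Xist was near background, and the Y-chromosomal Eif2s3y high, in knockout replicate 1 and NestinCre control replicate 2, which marks this pair as male and the remaining 4 arrays as female. In NestinCre control the male array was the higher one for Kcnj8 by 0.14 and for Abcc9 by 0.21, the opposite order to that in knockout. For Anpep and the dimmer Pdgfrb probe set the male array was the lower one, at differences of -0.07 and -0.10, the same order as in knockout. The part of sex in these gaps was not tested. With sex as a covariate, the difference from both controls was -2.20 (SE 0.06) for Rgs5, -0.96 (SE 0.06) for Higd1b, -0.75 (SE 0.14) for Pdgfrb and -0.59 (SE 0.11) for Ndufa4l2, close to the values without it. None of the members passed in that limma fit, where Rgs5 had an adjusted p of 0.146.

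The knockout was next set against each control group alone, and the control groups against each other. The comparisons share arrays, so their values are given side by side only. Against NestinCre control, which differs in the floxed Pofut1, 6 of 8 members were below 0 with a median of -0.26, beside a median of -0.0019 and 50.9% below 0 over 18193 genes. No probe set passed there, so 0% of all were called. At an unadjusted p under 0.05, 7 of 15 member probe sets were lower, and so were 1177 of all (2.61%), while 1440 of all were higher (3.2%). The knockout arrays lay below both NestinCre arrays for 10 of 15 member probe sets, beside 15.4% of all probe sets, and for 4 of 8 genes, beside 16.2% of all genes. Against Flox control, which differs in Cre, 8 of 8 were below 0 with a median of -0.56, beside a median of -0.04 and 62.6% below 0 over all genes. Rgs5 fell there, as 1 of 2 probe sets called (0.00444% of all), and 12 of 15 member probe sets did not overlap and were lower, beside 24.8% of all. By gene this held for 7 of 8, beside 30.3% of all genes. At an unadjusted limma p under 0.05, 10 of 15 were lower, beside 7.65% of all that were lower and 8.29% that were higher.

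The members were also lower in NestinCre control than in Flox control, by amounts that did not pass. All 8 were below 0 by the brightest probe set, with a median of -0.26 beside -0.04 and 64.2% below 0 over all genes. Of the 15 member probe sets 12 were below 0. Kcnj8 differed by -0.55 (SE 0.18, limma adjusted p = 0.437), Pdgfrb by -0.33 (SE 0.14), Ndufa4l2 by -0.29 (SE 0.11), Anpep by -0.27 (SE 0.16), Vtn by -0.26 (SE 0.07) and Higd1b by -0.16 (SE 0.06). By the brightest probe sets Rgs5 differed least, by -0.07 (SE 0.09, 95% interval -0.29 to 0.16). Its other probe sets differed by -0.33 (1420941_at), 0.06 (1420942_s_at) and 0.23 (1420940_x_at). The groups did not overlap and NestinCre control was lower for 7 of 15 member probe sets, beside 23.6% of all, and for 6 of 8 genes, beside 30.4% of all genes. For 2 of 15 the groups did not overlap and NestinCre control was higher, a share not counted over all probe sets. Of 45037 probe sets 0% passed limma's adjusted threshold in this comparison. At an unadjusted p under 0.05, 3 of 15 member probe sets were lower, beside 2353 of all (5.22%), and 2340 of all were higher (5.2%). The 5 measured pituitary genes were lower in NestinCre than in Flox control too, with a summed intensity of 425 and 484 against 887 and 2114, and their part in the members' difference was not tested.

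**Figure D2:**
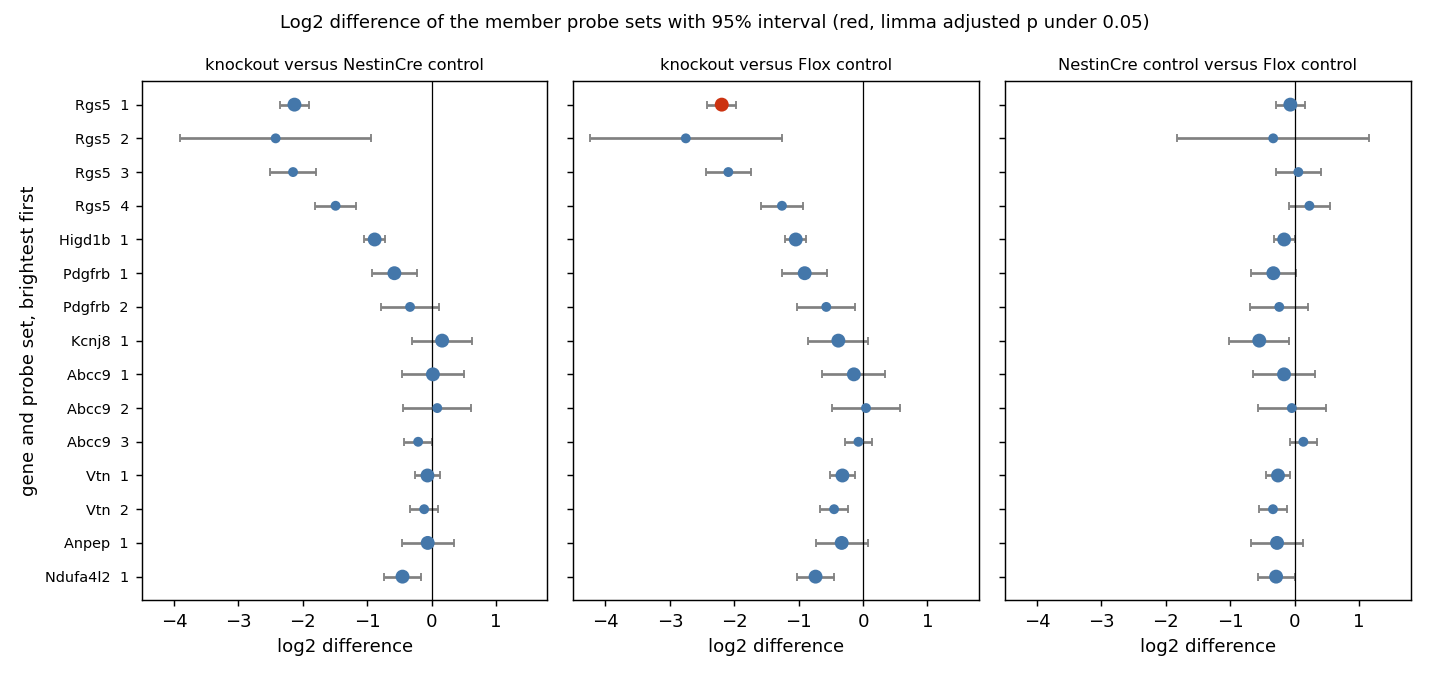
Log2 difference (horizontal axis) of each of the 15 member probe sets (rows, brightest first within a gene) in 3 comparisons, with the 95% interval of the limma fit as bars; large points are the brightest probe set of a gene and red marks a limma adjusted p under 0.05. Rgs5 and Higd1b lie left of 0 against either control, Kcnj8 and Abcc9 have intervals that include 0 against either, and all brightest probe sets lie left of 0 between the controls.

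Seen over all 8 members, the median difference from both controls was -0.39, with 8 of 8 below 0, beside a median of -0.02 and 59.3% below 0 over the brightest probe sets of 18193 genes. In 4 of 8 the knockout arrays lay below all controls, as they did for 10.9% of all genes. The summed intensity of the 8 genes was 5212 to 6146 on the control arrays and 3190 and 3264 on the knockout arrays, and most of that gap came from Rgs5.

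A further list held other genes of pericytes and mural cells, and 15 of its 17 were measured by a probe set of 1 symbol. Of these 12 were below 0 with a median of -0.27, and in 9 the knockout arrays lay below all controls, beside 10.9% of all genes. None passed by the brightest probe set. Notch3 stood at 8.67 and 8.64 in NestinCre control, 8.32 and 8.68 in Flox control, and 7.65 and 7.17 in knockout on the log2 scale, a difference of -1.17 (SE 0.17, limma adjusted p = 0.182). Its other, tighter probe set (1421965_s_at) passed, falling by 1.11 (SE 0.05, limma adjusted p = 0.0345). By its ending this probe set may also match other transcripts. In 5 of the 6 fits that left out 1 array, and with the replicate number as a block or sex as a covariate, no probe set passed limma's adjusted threshold, so this call was lost there. Without Flox control replicate 2, 1 probe set of all passed, and whether it was this one was not examined.

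Besides Notch3, the members of that list with the smallest p were P2ry14, a receptor for UDP-glucose, Art3, an ADP-ribosyltransferase family gene, and Heyl, a transcriptional repressor of the Notch pathway. P2ry14 differed by -0.91 (SE 0.06, limma adjusted p = 0.0581), Art3 by -1.02 (SE 0.08, limma adjusted p = 0.0802), Heyl by -0.94 (SE 0.08, limma adjusted p = 0.0890) and the aminopeptidase gene Enpep by -0.78 (SE 0.08, limma adjusted p = 0.107). For each, both knockout arrays were below all controls. Cspg4, the NG2 proteoglycan gene shared by pericytes and oligodendrocyte precursors, stood at 7.84 and 7.75, 7.96 and 7.70, and 7.72 and 7.99, a difference of 0.04 (SE 0.12, 95% interval -0.26 to 0.34). Tbx18, a transcription factor of mural cells, differed by 0.13 (SE 0.06).

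The genes of signalling to and from pericytes were examined as a list of 21, all measured. Of these 11 were below 0 and 10 above, with a median of -0.03, and none passed. Pdgfb, the ligand of the receptor encoded by Pdgfrb, stood at 7.34 and 7.25 in NestinCre control, 7.64 and 7.55 in Flox control, and 7.36 and 7.77 in knockout, a difference of 0.13 (SE 0.13, 95% interval -0.20 to 0.45). The groups overlapped. Edn1, which encodes the vasoconstrictor endothelin-1 that acts on mural cells, stood at 6.63 and 6.61, 6.50 and 6.72, and 7.97 and 8.49. Both knockout arrays were far above the controls, at 306% of their level (log2 difference 1.62, SE 0.16, limma adjusted p = 0.110), and the gene has 1 probe set. The sphingosine 1-phosphate receptor S1pr1 differed by -0.57 (SE 0.12), the signal transducer Smad2 by -0.21 (SE 0.05) and angiopoietin 1 (Angpt1), which pericytes release toward the endothelium, by 0.16 (SE 0.05). Their limma adjusted p ran from 0.245 to 0.368.

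**Figure D3:**
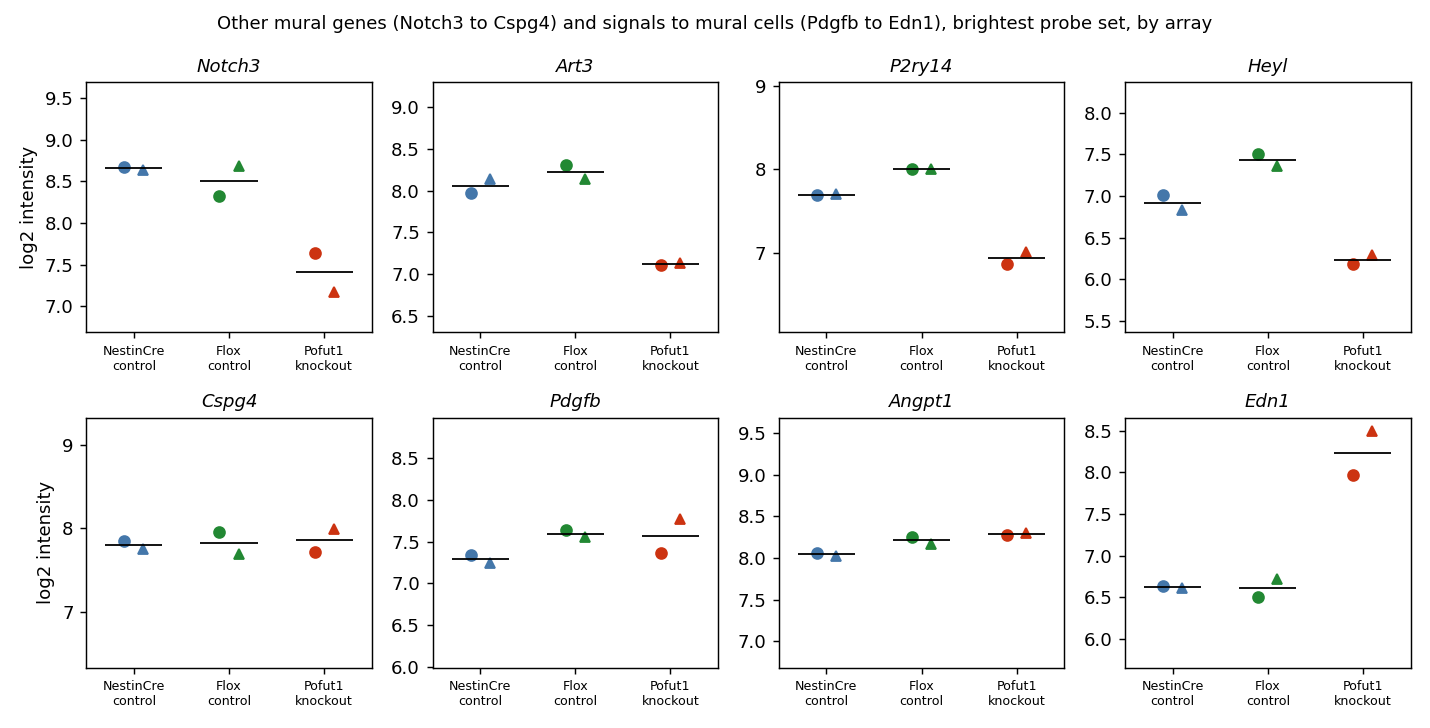
Log2 intensity on each array (circles replicate 1, triangles replicate 2, lines group means) of the brightest probe set of other mural genes and of genes for signals between endothelium and mural cells, each panel spanning the same range. Notch3, Art3, P2ry14 and Heyl are lower on both knockout arrays, Cspg4 and Pdgfb overlap between groups, and Edn1 is higher on both knockout arrays at 7.97 and 8.49.

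Relatives of the members that are used mainly by other cells gave differences from -0.26 to 0.12. Of 12 such genes 11 were measured, 7 were below 0, the median was -0.05 and none passed. Higd1a, the widely expressed relative of Higd1b, differed by 0.01 (SE 0.07, 95% interval -0.17 to 0.19), and Ndufa4, that of Ndufa4l2, by -0.01 (SE 0.05, 95% interval -0.13 to 0.11). Pdgfra, the receptor of oligodendrocyte precursors and fibroblasts, differed by 0.12 (SE 0.06, 95% interval -0.03 to 0.28). Rgs4 differed by -0.08 (SE 0.05), Rgs2 by -0.08 (SE 0.08), Rgs16 by -0.26 (SE 0.16) and Higd2a by -0.08 (SE 0.05). The potassium channel genes Kcnj11 and Abcc8, which form the corresponding channel of neurons, differed by -0.12 (SE 0.11) and 0.08 (SE 0.12), the adhesive protein gene Fn1 by 0.12 (SE 0.10) and the haemopexin gene Hpx by -0.05 (SE 0.11). The intervals of Higd1a, Ndufa4 and Pdgfra do not overlap those of Higd1b, Ndufa4l2 and Pdgfrb, and the differences between relatives were not themselves tested. Such a contrast did not hold for all members: the differences of Kcnj11 and Abcc8 lay within the intervals of Kcnj8 and Abcc9. Rgs16 was lower by more than the members Vtn (-0.19), Anpep (-0.20), Kcnj8 (-0.11) and Abcc9 (-0.06).

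Markers of other cells were set beside the members. Of 12 contractile smooth muscle genes 10 were below 0 (median -0.32), with 7 below all controls on both knockout arrays, beside 59.3% and 10.9% of all genes, and their summed intensity was 8603 to 9509 in controls and 7628 and 8397 in knockout. Myh11 differed by -0.86 (SE 0.12) and Tpm2 by -0.54 (SE 0.06). Of 14 measured endothelial genes 7 were below 0 and 7 above (median 0.05). Their summed intensity overlapped, at 15855 to 17503 in controls and 16150 and 16530 in knockout. The knockout arrays lay below all controls for 2 of these genes, beside 10.9% of all genes, and above all controls for 1. The brightest, Slc2a1, stood at 5332 to 5921 in controls and 5962 and 6224 in knockout. Slco1c1 stood at 2383 to 2769 in controls and 1979 and 1794 in knockout. Of 10 fibroblast genes 6 were below 0 (median -0.02), and their sums overlapped at 8082 to 9614 against 8421 and 8724. All 9 measured microglial and macrophage genes were above 0 (median 0.27), with a sum of 7361 to 8303 in controls and 8664 and 8858 in knockout. All 7 choroid plexus genes were below 0 (median -0.40), with a sum of 13617 to 14700 in controls and 12991 and 13205 in knockout. Of 8 astrocyte genes 6 were below 0 (median -0.12) with overlapping sums, while Gfap was above 0 by 0.86 (SE 0.07). The knockout arrays lay below all controls for 4 astrocyte genes, beside 10.9% of all genes, and above all controls for 2, Gfap and Aqp4. Aqp4 had log2 intensities of 12.25 to 12.47 in controls and 12.64 and 12.56 in knockout. None of these genes passed by limma's adjusted p, and the part of the smooth muscle, microglial, astrocyte and choroid plexus differences in the members' result was not tested.

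**Figure D4:**
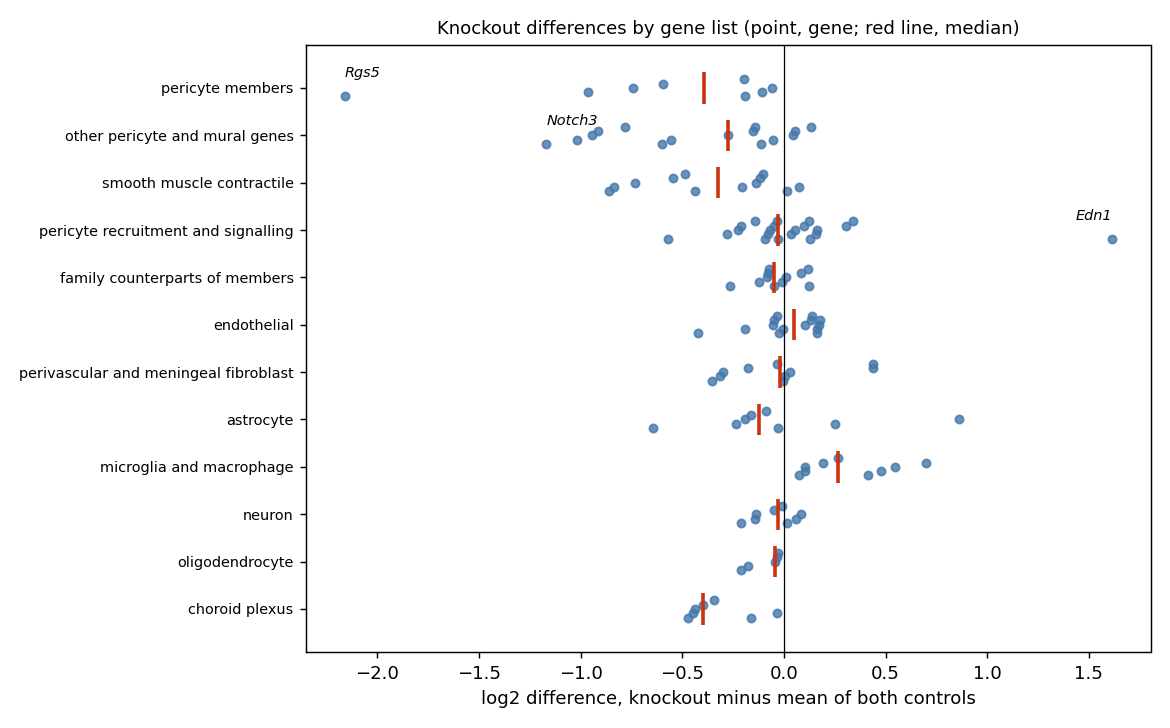
Log2 difference of knockout from the mean of both controls (horizontal axis) for each gene (points, brightest probe set) of 12 lists (rows), with the median of each list as a red line. The pericyte, other mural, smooth muscle and choroid plexus lists have medians of -0.39, -0.27, -0.32 and -0.40, the endothelial list 0.05 and the microglial list 0.27.

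The genes most like the members in pattern were sought among 447 non-member probe sets of 1 symbol that were brighter than the median and spanned at least 1 log2 unit. Likeness was Pearson's r over the 6 arrays with the mean of the members' standardised log2 profiles, and the arrays share the 3 groups, so it describes group differences and no more. The 6 genes with the highest r were Myorg (0.988), Slc9a3r1 (0.982), Mamdc2 (0.970), Chrdl1 (0.968), the glycine cleavage enzyme Gldc (0.960) and the peptide transporter Slc15a2 (0.955). In each, Flox control was highest, knockout lowest and knockout replicate 1 below replicate 2. The members' mean profile has this order, so the search selected for it. The brightest probe sets of Rgs5, Vtn and Ndufa4l2 had knockout replicate 2 below replicate 1 instead. Chrdl1, a secreted BMP antagonist, stood at 8.51 and 8.47 in NestinCre control, 9.20 and 8.85 in Flox control, and 7.02 and 7.63 in knockout. None passed: limma adjusted p for knockout against both controls ran from 0.176 to 0.349.

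As for the series, Pofut1 itself differed by -0.50 (SE 0.08, limma adjusted p = 0.211) from both controls by its brightest probe set, with both knockout arrays below all controls. Neuronal genes such as Snap25 and Syt1, the markers of the labelled tissue, lay between 11.45 and 13.09 on the log2 scale on average. Array medians were 7.32 to 7.36, and 7 probe sets in all were called in knockout against both controls. That total was 1 without Flox control replicate 2 and 0 without any other 1 array, with the replicate block or with sex as a covariate, and it was 135 with an intensity trend and 202 with a robust one.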

How the data were processed

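Brain RNA of 3 groups of 2 mouse brain samples was hybridised to 6 one-colour arrays. The deposited values are linear intensity per probe set; per the submitters' processing notes the tools listed are GCOS and RMA, without saying which step each made. RMA fits arrays jointly and can compress differences of dim probe sets. A build or filter is not named there.

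Log2 of each intensity was taken in place of the log2 values foreseen in the plan. Of 45101 probe sets 64 controls were left out. Of the remaining 45037, 34945 had 1 gene symbol in the platform annotation, 932 several and 9160 none listed. Group means were fitted with limma 3.58.1 in R 4.3.3 (lmFit, eBayes without trend, all 6 arrays, 3 residual degrees of freedom, 4.94 with the prior), with Benjamini-Hochberg adjustment over all 45037 and a threshold of 0.05. SE and 95% intervals come from that fit. The number of arrays limits the precision. The fit was tested on simulated data.

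The members and the gene lists were chosen with earlier results of these data known. Every member was named, with up to 4 genes of each other list by smallest p, and Notch3, Cspg4, Pdgfb and Pofut1. Lists named only by counts stand for other cells. Alternatives were other normalizations, filters on dim probe sets, other spread models, an offset of 16, 1 probe set per gene, fits on the compared groups, the replicate number as a block and each array left out. A sex term, and a fit of the 4 female arrays, were chosen after seeing the data. Sequences are RefSeq's for GRCm38.p6.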

Additional observations from a re-analysis of the deposited data

How the results depend on the processing

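The sign of Rgs5, Higd1b, Pdgfrb and Ndufa4l2 stayed negative in the 3 knockout comparisons under every alternative run, while the number of member probe sets past the limma threshold moved. Against both controls (1 called) it was 2 after repeated quantile normalization, 3 after centring on array medians, 2 with probe sets above the median only, 4 with those over 6 on 2 arrays, 4 with an intensity trend, with or without robust fitting, and 2 with 1 probe set per gene. It was 0 with the replicate number as a block, where Rgs5 had a limma adjusted p of 0.162, 0 with sex as a covariate, 0 with the female arrays only and 0 without any 1 array. Against NestinCre control (0 called, 7 lower at an unadjusted p under 0.05) it was 2 after centring, 2 above the median, 4 over 6, 3 with a trend, 4 with a robust trend and 2 with 1 probe set per gene, and stayed at 0 without any 1 array. Against Flox control (1 called) it was 2, 2, 4, 4, 5 and 2 under the same settings, and 0 after quantile normalization, with the compared groups only, with the replicate block, with an offset of 16, with sex as a covariate, with female arrays only and without any 1 array. Higd1b, and under the robust trend against Flox control Pdgfrb (adjusted p = 0.0481), were among those gained.

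The members' median ran, without 1 array at a time, from -0.47 to -0.35 against both controls, from -0.33 to -0.24 against NestinCre control, from -0.67 to -0.48 against Flox control and from -0.32 to -0.16 between the controls. With probe sets above the median only, which keeps 5 of 8 members, it was -0.19, -0.063 and -0.38 in the 3 knockout comparisons.

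Signs turned for Kcnj8, Abcc9, Vtn and Anpep. Only Rgs5 was called in any main comparison, so calls cannot be set against the stability of signs. Leaving out 1 array at a time, the difference from both controls ran from -0.37 to 0.15 for Kcnj8, from -0.31 to 0.19 for Abcc9 and from -0.41 to 0.016 for Anpep, each positive only without knockout replicate 1. That from NestinCre control ran from -0.10 to 0.43 for Kcnj8, from -0.23 to 0.27 for Abcc9, from -0.14 to 0.016 for Vtn and from -0.27 to 0.15 for Anpep, and that from Flox control from -0.40 to 0.11 for Abcc9. With the female arrays only it was 0.19 for Kcnj8 and 0.24 for Abcc9 against both controls, 0.12 for Anpep against NestinCre control and 0.11 for Abcc9 against Flox control. Against NestinCre control the sign of Abcc9 also turned without NestinCre control replicate 1, to -0.08. The cause was not tested. Deviations from group means correlated at 0.19 between the controls, -0.31 between NestinCre control and knockout, and -0.24 between Flox control and knockout. Each group held few arrays, and the male array had opposite replicate numbers in NestinCre control and knockout. These correlations therefore cannot decide whether replicate numbers paired the samples. A fit on the compared groups alone was not run against both controls, which already uses all groups. Where 1 array of a group was left out, the lone array was taken to vary like the others. Higd1b, Anpep and Ndufa4l2 lie below the median brightness of all probe sets.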
